A study of Mus musculus with 43 samples.

Results

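The asymmetric dimethylation of histone H3 at arginine 2 (H3R2me2a) was set against that at arginine 8 (H3R8me2a) in testes of wild-type (WT) C57BL/6J mice at postnatal day 7 (P7). Members were chosen by the sample labels alone: the 2 CUT&Tag peak lists of each mark, which makes 4 of the 33 CUT&Tag lists and of the 43 samples in the series. Tubule cells were released from testes by enzymes and passed through a strainer, a step meant to hold back Sertoli cells. For P7 testes the study reports a high ratio of germ to somatic cells in the filtrate, and the labels name spermatogonia. The marks were mapped with 1 antibody each (from EPIGENTEK for H3R2me2a and from Novus for H3R8me2a). Antibody and mark can therefore not be told apart. For comparison, WT P7 lists of H3K4me3 (2 lists), H3K27ac (2) and H4R3me2a (3) and WT P14 lists of the same pair of marks (2 each) were used, together with WT P7 RNA-seq of whole testis (3 bulk libraries) and of sorted spermatogonia (2 Smart-seq2 libraries). The study takes P14 testes to represent spermatocytes, although the P14 labels also name spermatogonia. Between the ages, repeatability of the lists and cell stage can therefore not be told apart. The bulk samples are labelled as spermatogonia although total RNA of testis was used, and the sorted WT cells carried the Ddx4-driven CreERT2 and GFP and 1 floxed Prmt1 allele. By the study's account the RNA was taken after consecutive doses of tamoxifen, while the labels of the WT libraries name no treatment. The study states in general terms that experiments were repeated biologically, but no source ties the 2 lists of a mark to separate animals, so the spread between them may be technical.

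Asymmetric arginine dimethylation is written by type I protein arginine methyltransferases (PRMTs). H3R2me2a is the known product of Prmt6 and is known to oppose the trimethylation of the neighbouring lysine 4 (H3K4me3), the mark of active promoters. H3R8me2a has been attributed to Prmt2 and is less well described. In the P7 testis the seminiferous tubules hold spermatogonia, among them the stem cells, beside Sertoli cells, and meiosis has not begun.

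The H3R2me2a lists held 18821 and 20891 peaks and the H3R8me2a lists 15547 and 15361 peaks. The read depth behind the lists is unknown, and fold enrichment is therefore not compared in level between marks. At q of at most 0.01 the order turned, with 1695 and 1433 H3R2me2a peaks against 2205 and 2279 H3R8me2a peaks. Median peak width was 267 and 262 bp for H3R2me2a and 266 and 264 bp for H3R8me2a. Peaks on chromosomes 1 to 19, X and Y were merged over the 4 lists at an overlap of 1 bp into 56692 regions. A region was called recurrent for a mark when both of its lists held a peak there, shared when all 4 lists did, and separate when both lists of 1 mark and none of the other did. With 2 lists against 2, an exact two-sided permutation test cannot go below p = 0.333, which is the value of every comparison below in which the marks did not overlap, and no difference between the marks can pass 0.05. The marks did not overlap in 26 of 30 measures compared, and no adjustment can lower that p.

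The windows printed here illustrate kinds of separate region, were picked for what they hold and compare nothing between the marks. Each has 150 bases (mm10, plus strand) and lies outside annotated exons. The first pair are H3R8me2a separate regions, with capitals marking runs of at least 24 bases that also occur, on either strand, in the 18S ribosomal RNA related sequence Rn18s-rs5 of RefSeq (GRCm38.p6, chr17:39846354-39848202).
chr3:16110952-16111101: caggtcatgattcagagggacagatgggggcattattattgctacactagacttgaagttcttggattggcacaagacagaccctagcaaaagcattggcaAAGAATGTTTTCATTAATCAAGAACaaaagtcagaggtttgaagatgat
chr4:78773997-78774146: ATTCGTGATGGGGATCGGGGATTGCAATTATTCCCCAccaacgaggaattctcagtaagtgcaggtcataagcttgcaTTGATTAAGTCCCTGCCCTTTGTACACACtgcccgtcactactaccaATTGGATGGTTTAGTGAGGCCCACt
The next pair are H3R8me2a separate regions in which capitals mark runs of at least 24 bases shared with the mouse mitochondrial chromosome.
chr3:6049637-6049786: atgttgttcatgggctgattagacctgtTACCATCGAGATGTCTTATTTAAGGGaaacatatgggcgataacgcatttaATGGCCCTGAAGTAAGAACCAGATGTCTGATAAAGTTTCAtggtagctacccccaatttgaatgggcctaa
chr1:132791072-132791221: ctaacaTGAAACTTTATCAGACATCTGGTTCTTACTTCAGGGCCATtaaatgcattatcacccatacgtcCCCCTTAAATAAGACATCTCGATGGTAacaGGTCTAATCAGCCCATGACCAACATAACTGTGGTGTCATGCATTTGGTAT
The following window is an H3R8me2a separate region with an AC repeat, here in capitals.
chr8:4656548-4656697: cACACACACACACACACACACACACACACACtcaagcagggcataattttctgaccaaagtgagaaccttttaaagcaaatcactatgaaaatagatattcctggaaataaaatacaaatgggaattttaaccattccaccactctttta
The H3R2me2a separate windows show the promoters of Pim3 and Prdm1 and a tandem repeat 32175 bp downstream of the TSS of Sesn1, in this order, with each CG in capitals.
chr15:88861723-88861872: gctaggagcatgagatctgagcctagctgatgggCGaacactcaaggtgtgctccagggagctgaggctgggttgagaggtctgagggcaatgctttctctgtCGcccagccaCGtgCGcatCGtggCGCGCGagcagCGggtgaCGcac
chr10:44529590-44529739: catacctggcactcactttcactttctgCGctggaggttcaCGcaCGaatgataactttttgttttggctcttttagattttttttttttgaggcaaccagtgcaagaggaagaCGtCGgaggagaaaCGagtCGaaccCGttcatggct
chr10:41930473-41930622: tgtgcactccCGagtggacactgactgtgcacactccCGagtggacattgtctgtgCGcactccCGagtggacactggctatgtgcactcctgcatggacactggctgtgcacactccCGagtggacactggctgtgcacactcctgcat
The promoter of Mcmbp, an H3R8me2a separate region, is shown the same way.
chr7:128700031-128700180: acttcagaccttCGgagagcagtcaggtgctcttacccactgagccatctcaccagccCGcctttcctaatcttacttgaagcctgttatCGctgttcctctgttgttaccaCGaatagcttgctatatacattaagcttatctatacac

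Over all peaks the promoter shares of the marks overlapped. Summits within 3000 bp of a transcription start site (TSS) made up 37.6% and 34.7% of the H3R2me2a lists and 37.5% and 38.4% of the H3R8me2a lists. The means of 36.1% ± 2.05 and 38.0% ± 0.652 (SD, n = 2) differed by less than the spread of the H3R2me2a lists (exact permutation p = 0.667). The difference ranged from 0.390 to 3.29 percentage points when 1 list was left out. Among the best 1000 peaks of each list by p the order turned, with 41.5% and 34.2% for H3R2me2a against 30.9% and 30.5% for H3R8me2a, and among the best 5000 the shares were 42.3% and 38.5% against 36.1% and 37.8%. Such windows cover 15.1% of the genome, so that summits were 2.30 to 2.55 times as frequent there as their length gives. The P7 H3K4me3 lists had 86.9% ± 0.936 (SD, n = 2) of their summits in promoters, and the H3K27ac lists 50.4% ± 0.768 (SD, n = 2). H4R3me2a, the product of Prmt1, had 32.6% ± 1.28 (SD, n = 3).

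Closer to the TSS the lists of the marks came apart. Within 500 bp lay 17.9% and 15.5% of H3R2me2a summits and 19.3% and 20.3% of H3R8me2a summits. The marks did not overlap, and H3R8me2a was higher by 3.12 percentage points (exact permutation p = 0.333). Introns held 32.6% and 34.2% of H3R2me2a summits against 30.7% and 29.5% of H3R8me2a summits, a difference (H3R8me2a minus H3R2me2a) of -3.27 percentage points that turned to 0.497 at q of at most 0.01. Coding and other exons held 2.097% and 2.096% of H3R2me2a summits against 1.53% and 1.33%. Intergenic summits were 26.1% and 27.6% for H3R2me2a and 29.1% and 29.6% for H3R8me2a. In P14 lists the exon share again did not overlap (2.64% and 2.71% against 1.88% and 1.82%), whereas the intron, intergenic and within-500-bp shares did.

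**Figure D1:**
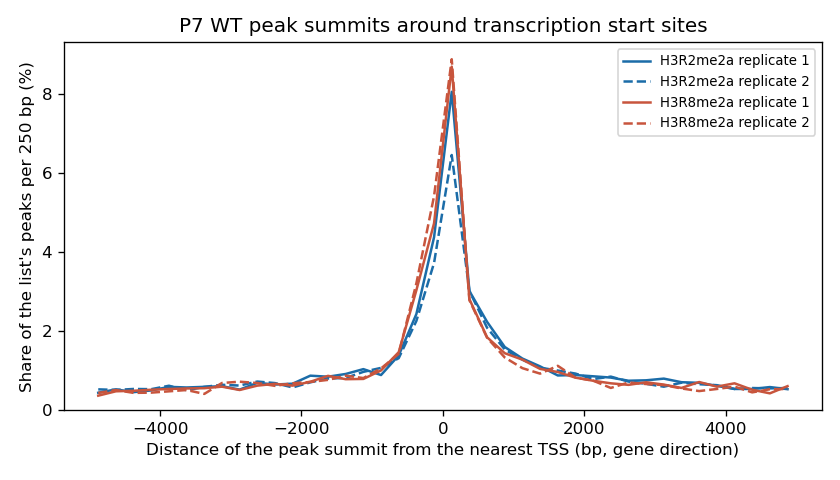
Share of each P7 list's peak summits (y axis, % per 250 bp) by distance from the nearest TSS (x axis, bp, negative upstream), with 1 line per list. All 4 lists peak just downstream of the TSS, and replicate 2 of H3R2me2a has the lowest summit.

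The X chromosome, silent in later meiosis and largely single-copy in these male cells, held few peaks of either mark. It carried 0.492% and 0.602% of H3R2me2a peaks and 0.717% and 0.851% of H3R8me2a peaks, although it makes up 6.28% of these chromosomes. The other P7 lists were also below that share, with 0.599 to 0.667% for H4R3me2a, 1.47 to 1.61% for H3K27ac and 3.57 to 3.72% for H3K4me3. At P14 the marks overlapped, with 0.780% and 0.965% against 0.928% and 0.761%. Of the separate regions, 1 of 1247 for H3R2me2a (0.0802%) and 23 of 1393 for H3R8me2a (1.65%) lay on X.

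Over all peaks, the regions of the H3R2me2a lists overlapped each other about as much as they overlapped those of H3R8me2a. The Jaccard index, the share of regions of either list that both hold, was 8.92% for the H3R2me2a pair (3210 regions, 95% Wilson interval 8.63 to 9.22%). Over the 4 pairs that cross the marks it was 8.71 to 9.11%. The H3R8me2a pair shared 13.6% (3614 regions, 13.1 to 14.0%), above each of the other 5 pairs. These intervals cover counting error only. At q of at most 0.01 the H3R2me2a pair shared 20.02%, against a mean of 18.9% across the marks. Among the best 1000 peaks of each list by p the H3R2me2a pair, at 28.8%, lay below all pairs across the marks, at 29.8 to 31.3%, and the H3R8me2a pair was at 48.2%. Among the best 100 peaks both within-mark pairs, at 85.9% and 91.0%, stood above the pairs across marks, at 59.3 to 61.2%. By genes with a promoter summit the index was 25.9% for the H3R2me2a pair, 22.3 to 23.6% across the marks and 27.2% for the H3R8me2a pair.

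Of the 56692 regions, 1223 were shared (2.16%), 1247 were H3R2me2a separate (2.20%) and 1393 were H3R8me2a separate (2.46%). The balance of the separate classes depended on how the lists were cut. With lists of equal length they numbered 820 (H3R2me2a) and 1502 (H3R8me2a), at q of at most 0.01 42 and 358, among the best 1000 peaks of each list 35 and 165, and among the best 100 peaks 16 and 20. As a measure of what 2 lists share without a common mark, 737 to 779 regions were held by exactly 1 list of each mark, for each of the 4 possible combinations. Each combination includes a shorter H3R8me2a list, so the 1247 regions of the longer H3R2me2a lists are not set against it at equal length. Single lists held 48078 regions (84.8%).

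**Figure D2:**
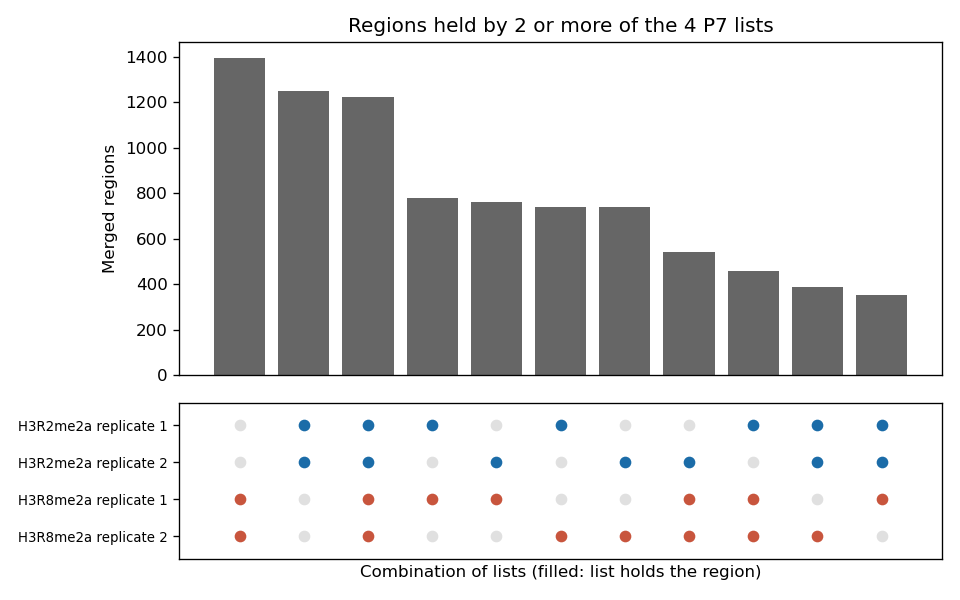
Number of merged P7 regions (bars, y axis) for each combination of 2 or more lists, with filled points below showing which lists hold the region. The highest bars are the 1393 H3R8me2a separate, 1247 H3R2me2a separate and 1223 shared regions, and the 4 combinations of 1 list of each mark lie between 737 and 779.

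The shared regions were the strongest of both marks and were also held by the other histone lists. Their median rank by p was 1690 and 1494 in the H3R2me2a lists and 1275 and 1308 in the H3R8me2a lists, and their median width was 724 bp. Recurrent H3K4me3 peaks overlapped 50.8% of them, H3K27ac peaks 71.5% and H4R3me2a peaks 84.5%, against 14.2%, 8.94% and 7.69% of all merged regions. No more than 75 shared regions (6.13%) were free of the 3 marks. Bases masked as repeats made up 43.0% of the 200 bp around their summits.

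By the rule for named regions, the leading shared regions at promoters were next to predicted genes and genes of known function alike. The region 1761 bp inside Aida (chr1:183299031-183299694), which codes for an axin interactor, had fold enrichments of 13.0 and 13.6 in the H3R2me2a lists and 17.3 and 19.5 in the H3R8me2a lists. The region 2138 bp upstream of Zc3h7a (chr16:11143803-11144412), a zinc finger gene, had 11.5 and 13.4 and then 20.1 and 20.5. Both genes were transcribed, with Aida at 65.9, 63.8 and 51.9 TPM in bulk testis. At Asmt (chrX:170672982-170673714), the last enzyme of melatonin synthesis, the values were 13.7, 11.9, 13.8 and 12.7, while the gene itself was listed at 0, 0 and 0.10 TPM. The other 5 were predicted genes (Gm10800, Gm21738, Gm10722, Gm10715 and Gm10801), whose summit windows were repeat-masked over 45.0 to 100% of their bases. The leading pair outside promoters, in an intron of Mdga2 (chr12:67059103-67059926) and 21840 bp from Gm14496 (chr2:182012596-182013319), ranked 3 to 10 in every list. All 10 overlapped recurrent H3K4me3, H3K27ac and H4R3me2a peaks and peaks in both P14 lists of each mark.

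The H3R2me2a separate regions were more often at promoters than the H3R8me2a separate regions, but not than regions held by 1 list of each mark. Their median rank was 8932 and 8872, against 9475.5 and 10517.5 for all merged regions in the same lists. Ranks are not compared between the marks, since the lists differ in length. Promoters made up 45.9% of them (572), against 39.6% of H3R8me2a separate regions (551) and 35.4% of all merged regions. In regions held by exactly 1 list of each mark the promoter share was 48.2%. Within 500 bp of a TSS the separate classes were close, at 26.2% for H3R2me2a and 26.0% for H3R8me2a. Regions of 1 list of each mark were at 29.2% there. The summit windows of the H3R2me2a separate class had 54.8% GC on average, against 51.2% in H3R8me2a separate regions. Regions of 1 list of each mark had 54.0%, and windows taken every 20 kb of the genome 41.7%. In promoters alone GC was 58.7% against 58.0%. The CG dinucleotide was less frequent relative to base content than in H3R8me2a separate regions, at an observed to expected ratio of 0.339 against 0.376 overall and 0.494 against 0.582 in promoters. Repeat-masked bases were 17.4% in H3R2me2a separate regions, against 36.4% in the genome windows.

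The 8 leading H3R2me2a separate promoters belonged to Papss1, Pim3, Thrb, Lrpprc, Rwdd3, Prdm1, Nudcd2 and Ccdc30. All 8 also had a recurrent H3K4me3 peak, against 56.5% of all H3R2me2a separate promoter regions. Papss1 (chr3:131564766-131565149, summit 85 bp inside the TSS), which makes the sulfate donor PAPS, had fold enrichments of 4.61 and 4.42 and was at 80.4, 78.8 and 72.6 TPM in bulk testis. Pim3 (chr15:88861657-88861998, summit 388 bp upstream), a serine/threonine kinase gene, had 3.20 and 3.26 and was at 34.4, 38.6 and 36.1 TPM. The 8 genes included ones at low transcript level. Thrb (chr14:17659975-17660836), the thyroid hormone receptor beta, had 3.85 and 4.36 and was at 2.25, 1.46 and 1.54 TPM in testis and listed at 0 in both Smart-seq2 libraries. Prdm1 (chr10:44529570-44529857, summit 1164 bp upstream), a transcription factor that specifies germ cells in the embryo, had 3.88 and 4.04 and was at 0.74, 0.69 and 0.48 TPM in testis and at 2.02 and 0 TPM in Smart-seq2. Outside promoters the rule named an intronic region near Sesn1 (chr10:41930217-41930722, 4.79 and 4.50) and one near Pfdn4 (chr2:170504240-170505326, 4.04 and 4.27). The former overlapped none of the 3 marks and was in both P14 H3R2me2a lists and in neither P14 H3R8me2a list, the only one of the 10 named regions absent from the latter. The Pfdn4 region overlapped H3K27ac and H4R3me2a and was in both P14 lists of each mark. All 8 promoter regions were in 1 or 2 of the P14 H3R8me2a lists, 6 of them in both.

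The H3R8me2a separate regions, like the shared regions, were richer in repeats than the H3R2me2a separate regions. Most of the leading H3R8me2a separate regions lacked H3K4me3 and H3K27ac. The median rank of the class was 5645 and 5554, against 7850 and 7760 for all merged regions in the same lists. Its summit windows were masked over 42.3% of their bases, against 43.0% in shared regions and 36.4% in genome windows. Outside promoters the masked share was 59.3%, against 24.2% in H3R2me2a separate regions and 53.2% in shared regions. AC repeats of at least 6 units on either strand (ACACACACACAC or GTGTGTGTGTGT) stood in 14.9% of the windows, against 8.42% in H3R2me2a separate regions, 15.4% in shared regions, 8.55% in all merged regions and 2.92% in genome windows. Sequence composition is known to affect how reads are placed, and its part in the result was not tested.

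The leading H3R8me2a separate promoters were those of Mcmbp, Gsdma2, Cep295, Rrp1, Eif2s1, Taco1, BC005537 and Gm11168. Of these 8, Eif2s1, Taco1 and BC005537 had recurrent H3K4me3 and H3K27ac, and the other 5 had neither. Among all H3R8me2a separate promoter regions 63.0% had H3K4me3 and 44.1% H3K27ac, both above the H3R2me2a separate promoter regions (56.5% and 20.98%). Mcmbp (chr7:128699939-128700281, summit 887 bp upstream), whose product binds the replicative MCM helicase, had fold enrichments of 7.75 and 8.28 and was at 70.0, 77.0 and 59.8 TPM. Eif2s1 (chr12:78861704-78862328, summit 66 bp inside), the alpha subunit of the initiation factor eIF2, had 4.87 and 5.33 and was at 79.3, 97.0 and 69.4 TPM in testis and 232 and 276 TPM in sorted spermatogonia. Gsdma2 (chr11:98652960-98653195), of the gasdermin family, had 7.84 and 6.40 but was at or near 0 TPM in all 5 libraries. The Cep295 region (chr9:15321558-15321968) holds mitochondria-like sequence of the kind described in the next paragraph. Mcmbp, Gsdma2, Rrp1, Taco1 and this Cep295 region were in both P14 H3R8me2a lists and in neither P14 H3R2me2a list. Eif2s1 and BC005537 were in both P14 lists of each mark, and Gm11168 was in 1 P14 H3R8me2a list alone. The strongest regions outside promoters, 72074 bp from Ythdf3 (chr3:16110952-16111309) and 8918 bp from Cerk (chr15:86194619-86195376), reached fold enrichments of 17.3 and 17.5, and 13.0 and 13.2, without any of the 3 other P7 marks, and both were in both P14 lists of each mark.

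Copies of multi-copy sequence stood out among the H3R8me2a separate regions. Ribosomal RNA genes and the mitochondrial genome exist in many copies per cell, and nuclear fragments like them are scattered over the genome. At least 24 bases of 18S sequence were found in 11 H3R8me2a separate regions, in 0 H3R2me2a separate regions and in 2 shared regions, of 16 such regions in all. At least 24 bases of mitochondrial sequence were found in 16 H3R8me2a separate, 0 H3R2me2a separate and 2 shared regions, of 26. By list, 18S-like peaks numbered 3 and 3 for H3R2me2a and 14 and 15 for H3R8me2a, and mitochondria-like peaks 2 and 2 against 20 and 24. The P14 lists, which did not define these regions, gave 3 and 4 against 17 and 16 peaks, and 2 and 3 against 21 and 16 peaks. At both ages the marks did not overlap (exact permutation p = 0.333 each). The other P7 marks had 2 to 4 18S-like peaks per list. Mitochondria-like peaks numbered 3 to 4 per list in H3K4me3 and H3K27ac and 11 to 17 in H4R3me2a. The highest-ranked 18S-like separate region stood at rank 93 and 87 (the first sequence printed above), and all 11 were in both P14 H3R8me2a lists against 1 in both P14 H3R2me2a lists. Reads of such copies can align at more than 1 place, and how multi-mapping reads were handled is not given in the sources used here.

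Over all peaks, H3R8me2a lists also held more repeat-masked sequence. Around summits 19.9% and 22.4% of bases were repeat-masked in the H3R2me2a lists and 31.9% and 32.5% in the H3R8me2a lists (means 21.2% ± 1.78 and 32.2% ± 0.377, SD, n = 2). H3R8me2a was thus higher by 11.0 percentage points, several times the spread between lists of a mark (exact permutation p = 0.333). Among the best 1000 peaks by p the shares were 36.0% and 40.5% against 49.1% and 49.2%, but among the best 100 the order turned, with 64.4% and 66.17% for H3R2me2a against 53.16% and 52.35% for H3R8me2a. At P14 the values were 17.8% and 17.4% against 24.4% and 23.6%. H3K4me3 lists had 8.49 to 8.64%, H3K27ac lists 18.6 to 21.1% and H4R3me2a lists 26.9 to 31.3%. Summit GC content, at 52.1% and 51.2% for H3R2me2a and 51.4% and 51.5% for H3R8me2a, overlapped between the marks.

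**Figure D3:**
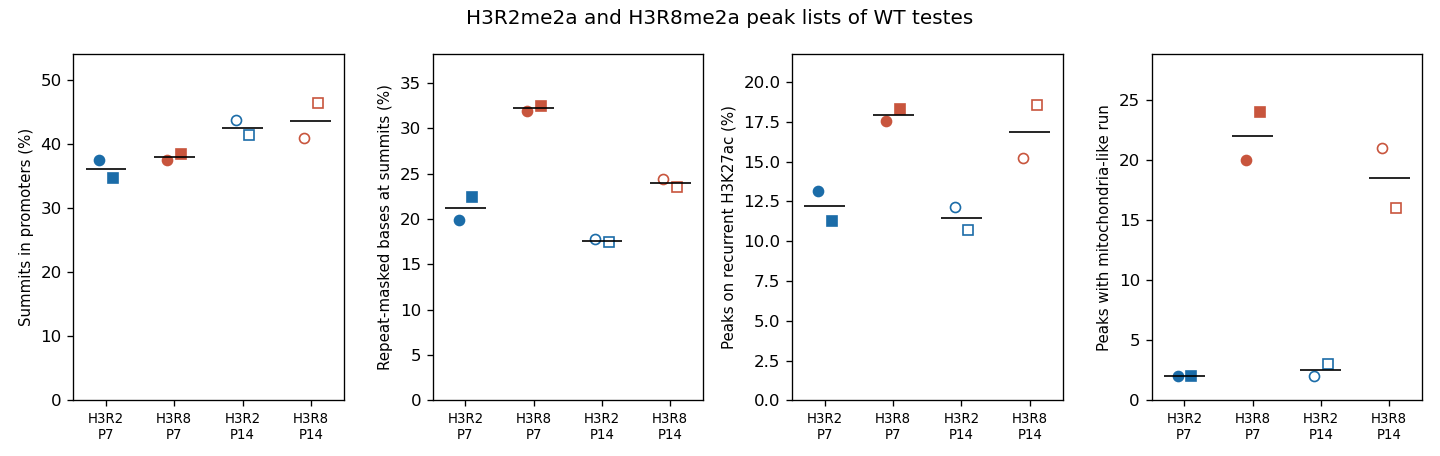
Promoter share of summits, repeat-masked share of bases within 200 bp windows at summits, share of peaks on recurrent P7 H3K27ac peaks, and number of peaks with a run of at least 24 mitochondrial bases (y axes), for each P7 (filled) and P14 (open) list of both marks. Circles are replicate 1, squares replicate 2 and lines the means, and the marks separate at both ages in the last 3 panels but not in promoter share.

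In the uncut lists, peaks of H3R8me2a lay more often on other active marks than peaks of H3R2me2a. Recurrent H3K4me3 overlapped 18.2% and 14.9% of H3R2me2a peaks and 20.4% and 21.4% of H3R8me2a peaks. Recurrent H3K27ac overlapped 13.1% and 11.2% against 17.6% and 18.3%, and H4R3me2a 12.4% and 11.6% against 17.8% and 17.99%. None of these overlapped between the marks (exact permutation p = 0.333 each). These shares are over all peaks of lists that differ in length. At the level of separate regions H3K4me3 was close between the marks, at 26.9% (336 of 1247) for H3R2me2a and 25.7% (358 of 1393) for H3R8me2a. H3K27ac was on 11.9% and 22.5% and H4R3me2a on 11.9% and 26.4% of them. In promoters alone, H3K27ac was on 20.98% of H3R2me2a separate and 44.1% of H3R8me2a separate regions, beside H3K4me3 on 56.5% and 63.0%.

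Separate regions of P7 were found more often in the P14 lists of their own mark than in those of the other mark. The P14 lists were cut by p to 29376 peaks each, the length of the shortest. H3R2me2a separate regions overlapped 45.1% and 47.2% of the time with P14 H3R2me2a peaks and 32.4% and 36.3% with P14 H3R8me2a peaks. H3R8me2a separate regions overlapped 39.2% and 41.5% with P14 H3R2me2a peaks and 51.8% and 58.6% with P14 H3R8me2a peaks. The difference, H3R8me2a minus H3R2me2a, was -11.8 percentage points for the former and 14.8 for the latter, and in neither class did the P14 marks overlap (exact permutation p = 0.333 each). Over all merged regions the shares were 20.9% and 21.3% in the P14 H3R2me2a lists and 17.3% and 20.4% in the P14 H3R8me2a lists, a difference of -2.22 percentage points. Regions held at P7 by exactly 1 list of each mark had 48.4% and 47.6% against 40.3% and 47.2%, a difference of -4.30 points. The H3R2me2a separate class was not above these regions in the P14 H3R2me2a lists, and was below them in the P14 H3R8me2a lists. The H3R8me2a separate class was above them in the P14 H3R8me2a lists. With all P14 peaks the differences of the separate classes were -22.7 and 6.82 percentage points. Shared regions were found in 90.5 to 96.7% in every P14 list. Promoter regions carried less of this preference in the H3R8me2a class. There, 61.5% and 62.6% were in the P14 H3R2me2a lists and 64.4% and 69.0% in the P14 H3R8me2a lists, while outside promoters it was 24.6% and 27.7% against 43.5% and 51.8%. In the H3R2me2a class promoters gave 61.5% and 63.1% against 45.3% and 49.8%, and other regions 31.1% and 33.8% against 21.5% and 24.9%.

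**Figure D4:**
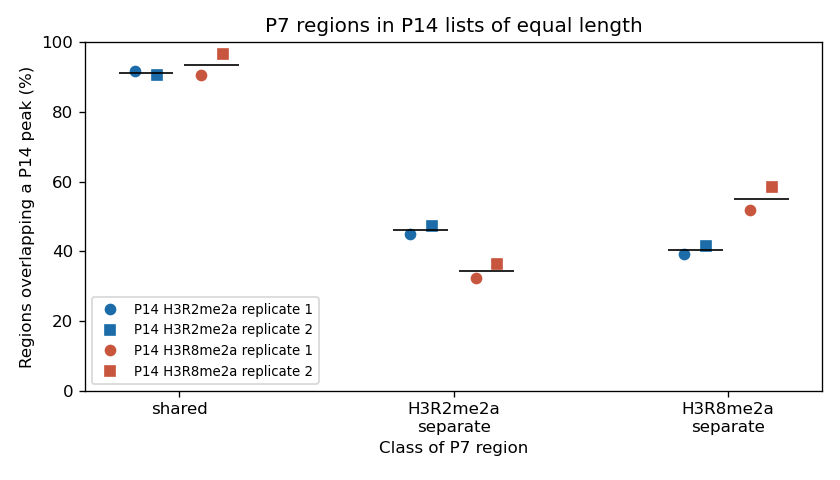
Share of P7 regions of each class (x axis) that overlap a peak of the P14 lists of either mark cut to equal length (y axis, %), with 1 point per P14 list and lines at the means. Each separate class lies higher in both P14 lists of its own mark.

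A gene was counted for a mark when both lists had a summit within 3000 bp of one of its start sites, so that the peaks of a gene need not overlap. Of 55104 genes with a TPM value, 3206 were counted for H3R2me2a (5.82%) and 2880 for H3R8me2a (5.23%). Both marks met at 988 genes (1.79%). A further 1136 genes (2.06%) had H3R2me2a in both lists with no H3R8me2a summit in either list, and 819 (1.49%) the reverse. Genes that share a promoter region are each counted. Of the 803 protein-coding genes in the H3R2me2a separate class, 83.7% had recurrent H3K4me3 and 40.2% H3K27ac. Of the 530 in the H3R8me2a separate class, 89.2% and 65.1% did, and of the 757 genes with both marks, 95.5% and 81.8%. Over all 21884 protein-coding genes the shares were 60.8% and 31%.

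Genes under H3R8me2a were the more highly transcribed. Protein-coding genes with an H3R8me2a promoter peak had a median of 25.4 and 25.2 TPM in bulk testis, by list, against 18.8 and 17.7 TPM for H3R2me2a. In sorted spermatogonia the medians were 16.6 and 17.03 TPM against 10.3 and 9.32 TPM. The marks did not overlap in either assay (exact permutation p = 0.333), nor when the lists were cut to 15361 peaks each (bulk 25.3 and 25.2 TPM against 19.4 and 17.97 TPM). For separate genes the gap was wider. The median protein-coding gene of the H3R8me2a separate class was at 32.5, 33.5 and 30.6 TPM in the 3 bulk libraries and that of the H3R2me2a separate class at 11.2, 11.8 and 10.6 TPM. In Smart-seq2 it was 23.6 and 21.4 TPM against 5.20 and 4.79 TPM. Genes with both marks were at 29.4, 29.5 and 26.5 TPM, and genes in no list at 0.32, 0.32 and 0.31 TPM. Over all genes, the median of log2(TPM + 1) was higher in the H3R8me2a than in the H3R2me2a separate class by 1.55 in bulk and by 2.30 in Smart-seq2, in 3 of 3 and 2 of 2 libraries. The size of this gap rests on genes at low level. With only genes at 1 TPM and over it was 0.92 in bulk and 0.67 in Smart-seq2, and with a pseudocount of 0.1 it was 1.78 and 4.27. Genes are not replicates, and the libraries share the gene classes, so no test was made of these medians.

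The marks differed in opposite ways at low and high transcript levels. Of 2729 protein-coding genes at 0.1 to 1 TPM in bulk testis, 19.5% and 19.8% had a peak in the H3R2me2a lists and 11.7% and 11.5% in the H3R8me2a lists. Of 1668 genes at 100 TPM and over, 31.5% and 29.7% against 36.4% and 34.3% did. With lists of equal length these shares were 15.4% and 15.5% against 11.6% and 11.5%, and 27.5% and 24.5% against 35.9% and 34.3%. In whole testis, fewer cells of a type and less RNA per cell cannot be told apart.

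**Figure D5:**
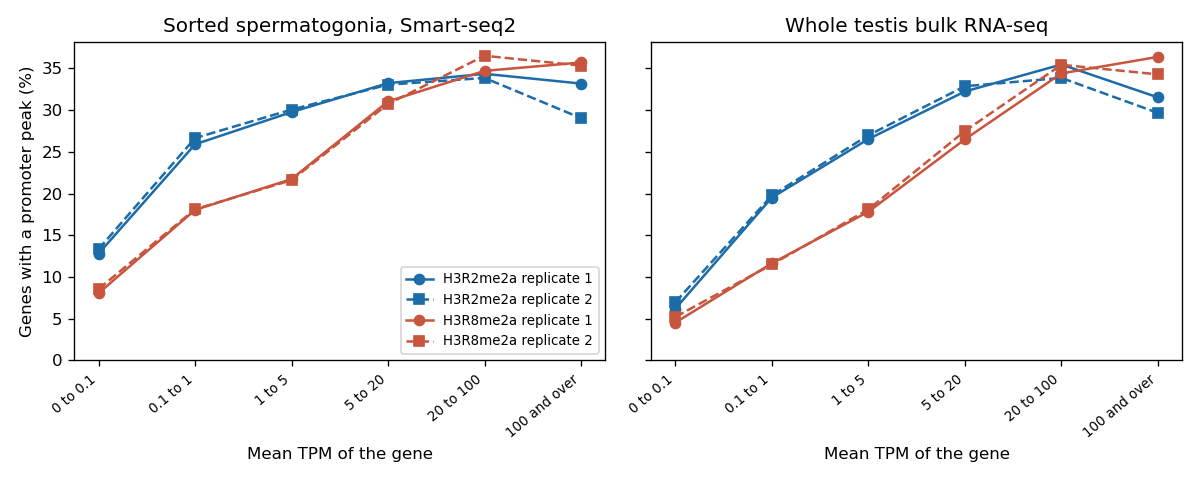
Share of protein-coding genes with a promoter peak in each of the 4 P7 lists (y axis, %) by the gene's mean TPM (x axis, 6 bins) in sorted spermatogonia and in whole testis. The H3R2me2a lines lie above the H3R8me2a lines in the bins below 5 TPM and below them at 100 TPM and over.

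Among the PRMT genes themselves, recurrent H3R8me2a was at the promoters of Prmt1, Prmt2, Carm1 and Prmt9 (4 of 9), and recurrent H3R2me2a at Prmt2 and Carm1 (2 of 9), beside 9.69% and 10.9% of all protein-coding genes. Prmt2, the enzyme named for H3R8me2a, had H3R2me2a peaks of 3.62- and 4.36-fold enrichment (summits 105 bp inside and 180 bp upstream of a TSS) and H3R8me2a peaks of 4.86- and 3.17-fold (167 bp upstream and 2093 bp inside). The latter pair lay at chr10:76237647-76238152 and chr10:76208605-76209058, by different start sites. Prmt6, the enzyme named for H3R2me2a, had 1 peak of each mark, both in replicate 2 (3.76-fold at chr3:110250499-110250703 and 4.12-fold at chr3:110249949-110250148), and was thus recurrent for neither. Prmt1, the main writer of H4R3me2a, had H3R8me2a peaks of 2.94- and 3.03-fold close to its TSS (154 bp inside and 89 bp upstream, without overlap) and none of H3R2me2a. Carm1, which methylates H3 at arginines 17 and 26, had H3R2me2a at 3.33- and 3.00-fold and H3R8me2a at 4.27- and 5.31-fold, all 412 to 589 bp upstream. Prmt1 was at 652, 604 and 638 TPM in bulk testis, Prmt2 at 46.2, 45.0 and 44.5 TPM and Prmt6 at 25.9, 23.0 and 22.1 TPM. In Smart-seq2 Prmt2 was listed at 0 in 1 library and at 21.2 TPM in the other.

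In the germ cell lists recurrent peaks of either mark stood at single genes, beside 10.9% (H3R2me2a) and 9.69% (H3R8me2a) of all protein-coding genes. Of 22 self-renewal genes, 1 had recurrent H3R2me2a and 2 had recurrent H3R8me2a, 11 had no peak in any list, and 16 had recurrent H3K4me3. Over all protein-coding genes, 10813 of 21884 had no peak in any list and 60.8% had recurrent H3K4me3. Etv5, a target of GDNF in the stem cells, had both marks, with fold enrichments of 4.17 and 3.00 for H3R2me2a and 3.64 and 2.90 for H3R8me2a. Foxo1, which stem cells need for their maintenance, had H3R8me2a at 2.68- and 3.09-fold, 1955 and 1525 bp inside its TSS. Of 12 differentiation genes, Dmrt1 and Ccnd2 (2) had recurrent H3R2me2a and 0 had recurrent H3R8me2a. Dmrt1, which holds off meiosis in spermatogonia, had separate peaks of 3.37-fold at 45 bp inside and 2.91-fold at 1442 bp upstream of the TSS, and was at 280, 277 and 258 TPM in bulk testis. At Ccnd2, a D-type cyclin, the values were 3.29- and 3.19-fold, in peaks that did not overlap (chr6:127151483-127151923 and chr6:127150482-127150681). Of 24 meiotic genes, Prdm9, which sets recombination sites, and Spo11, which cuts them, had recurrent H3R2me2a (4.21- and 3.57-fold, and 2.36- and 3.11-fold) and 0 had recurrent H3R8me2a. Each of the pair also had a peak in 1 H3R8me2a list. Lists of this size are too short for these counts to say anything particular about them.

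Of the somatic lists, Sertoli genes (11) had 0 with recurrent H3R2me2a and 2 with recurrent H3R8me2a. Wt1, a transcription factor of Sertoli cells, had H3R8me2a 299 and 194 bp upstream of a TSS, the latter at 2.74-fold, and Cldn11, of the blood-testis barrier, had 3.27-fold 407 bp upstream and 3.00-fold 1485 bp inside its TSS, in peaks that did not overlap. Both also had a peak in 1 H3R2me2a list. The Leydig (6), peritubular myoid (7) and macrophage (6) genes had 0 with recurrent peaks of either mark. Beside the same 10.9% and 9.69% of all protein-coding genes, counts over 6 to 11 genes say nothing particular about these lists. The 11 Sertoli genes summed to 5101 to 5531 TPM in bulk testis and to 283 and 314 TPM in sorted spermatogonia. The Leydig genes summed to 624 to 724 TPM and to 6.97 and 0.12 TPM, with Cyp17a1, Cyp11a1, Hsd3b1, Insl3 and Lhcgr at 0 in the sorted cells. The study reports a high ratio of germ to somatic cells in the CUT&Tag input of P7 testes. What part the remaining somatic cells have in the peak lists was not tested here.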

How the data were processed

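Peak lists were compared for WT P7 testes. The authors called peaks per sample with MACS2 on mm10 (fastp and MACS2 are in the submitters' processing notes, with RSEM). Which aligner and which control library were used is not given in the sources used here. The names of the peaks hold a p of 0.005. The deposited columns used were fold enrichment, a ratio over local background, and −log10 p and −log10 q. The deposited TPM values and expected counts came from RSEM, and the 5 WT RNA libraries held 15196900 to 18547100 expected counts.

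Summits were placed with GENCODE vM21 (promoter within 3000 bp of a TSS, then UTRs, exon, intron, 300 bp downstream, intergenic), and all peak ends lay within GRCm38 chromosome lengths. Sequence and repeat masking (lower case) came from RefSeq GRCm38.p6. Regions were merged with Python 3 (pandas, pysam), and reciprocal overlap was run with bedtools. Marks were compared by exact two-sided permutation over lists. Overlap and permutation code was tested on simulated data. Up to 8 promoter regions and 2 others per class were named, by the better worst rank of p over the lists that hold them, with the PRMT genes and members of the marker lists that had recurrent peaks. Members, gene lists and measures were chosen with earlier results of these data known, and repeat, 18S and mitochondrial measures were added after the peaks had been seen. Lists of H4R3me1, H4R3me2s, of other P14 marks, and knockout RNA were not used here.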

Additional observations from a re-analysis of the deposited data

Results flagged for a closer look

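Peaks on unplaced sequences and on the mitochondrial chromosome took no part in the merged regions. They numbered 129 and 135 in the H3R2me2a lists and 212 and 204 in the H3R8me2a lists, with 3 to 5 per list on the mitochondrial chromosome. Of these peaks 59.4 to 73.6% had q of at most 0.01, against 6.50 to 14.2% of the peaks on chromosomes 1 to 19, X and Y. No control sample for them was analysed here. The number of peaks at q of at most 0.01 differed between the marks in opposite directions at the 2 ages, with H3R8me2a minus H3R2me2a at 678 peaks at P7 and -9882 peaks at P14, where the lists held 15337 and 19516 H3R2me2a and 5621 and 9468 H3R8me2a peaks. This contrast between ages was not tested.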

How the results depend on the processing

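Of 118 alternative values, 94 kept the direction of the value reported (counts within 1.5 times of it), 20 moved and 4 turned direction. Shares of regions and overlap indices had a narrower limit, so that 67.6% against 71.5% of shared regions with H3K27ac counted as moved. At q of at most 0.01 the differences, H3R8me2a minus H3R2me2a, became -3.14 percentage points in promoter share, 0.497 points in intron share and 678 peaks. The GC difference ranged from -0.675 to 0.246 points when 1 list was left out and turned positive without H3R2me2a replicate 1. At reciprocal overlap of 50% the Jaccard index was 4.88% (within H3R2me2a), 7.86% (within H3R8me2a) and 4.93% (between marks), with 575 shared regions. At q of at most 0.01 it was 20.02%, 28.0% and 18.9%, with 396 shared, 42 H3R2me2a separate and 358 H3R8me2a separate regions. With lists of equal length the index between marks was 9.24%, and 820 regions were H3R2me2a separate and 1502 H3R8me2a separate. By region summit, H3K27ac was on 67.6% of shared and 19.4% of H3R8me2a separate regions. Within 1000 bp of a TSS, the genes recurrent for H3R2me2a, H3R8me2a and both were 1854, 1874 and 588, and with a peak in either list 12422, 10633 and 5777, against 3219, 2897 and 992 of all annotated genes. The repeat-masked difference lay between 9.75 and 12.3 points by whole peak, without each list, with lists of equal length and at q of at most 0.01, but turned among the best 100 peaks, where the H3R2me2a lists held more. Values that kept their direction could change in size. The promoter share difference was 0.390 to 3.29 points without 1 list, the log2 gap in bulk between genes with both marks and genes in no list fell from 4.23 to 1.20 with only genes at 1 TPM and over, and the P14 differences became -22.7 and 6.82 points with all P14 peaks. The replicate numbers share no label beyond the number, and cross-mark pairs of the same number (9.07% and 8.81%) were no closer than others (9.11% and 8.71%). With a replicate block the promoter share differed by 1.84 points, at a paired exact permutation p of 1.0. The number of lists, and not depth, which is unknown, limits each test.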
